A study of Mus musculus with 12 samples.

Results

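The genes described here encode proteins that bind, splice, unwind or translate RNA. They were chosen by name: a probe set was a member if the platform annotation gave it 1 gene symbol and that symbol began with Ddx, Dhx, Hnrn, Srsf, Sfrs, Rbm, Sf3, Prpf, Celf, Elavl or Eif. This gave 113 probe sets of 73 genes, out of 11868 probe sets on the array that are not controls. A probe set counted as measured if it reached a log2 value of 4 on at least 3 of the 12 arrays. By that rule 52 member probe sets (46%) of 43 genes were measured, against 3541 (29.8%) of all probe sets, and 61 member probe sets were not. All probe sets include those without a gene symbol. Of the 7717 probe sets with 1 symbol, 2713 were measured.

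The RNA came from the mouse hippocampus and was hybridised to array C of the Affymetrix murine genome U74 set. The 12 arrays form 4 groups of 3, named here as mutant kainate, mutant saline, control kainate and control saline. The mutant mice lacked CREB and CREM, per the series title, and the control mice are labelled as controls. The sources used here do not give the alleles, any Cre driver or the strain. Mice of both sexes, littermates aged 5 to 6 weeks, were caged singly and handled for 5 days. Kainate was injected intraperitoneally at 20 mg/kg and the hippocampi were taken 1 hour later, while the saline groups received saline. Each array holds RNA pooled from 3 animals, and the labels call the arrays of a group biological replicates. The p-values below therefore measure the spread between pools.

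Messenger RNA is spliced by the spliceosome, whose choice of exons is set by SR proteins (the Srsf genes), heterogeneous nuclear ribonucleoproteins (the Hnrn genes) and other RNA-binding proteins. DEAD-box and DEAH-box helicases (the Ddx and Dhx genes) unwind RNA during splicing, ribosome assembly and translation. Many of the Eif genes encode factors that start translation on the cap of the messenger, and others act elsewhere in translation or regulate it. In hippocampal neurons the Elavl and Celf proteins control the splicing, stability and translation of messengers that also serve synapses. Kainate activates glutamate receptors and causes seizures. CREB and CREM are related transcription factors that bind the cyclic AMP response element and switch on genes after neuronal activity.

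Array medians ran from 3.26 to 3.41 log2 units, and 26.7 to 30% of the probe sets on an array reached log2 4. The probe sets of Creb1 and Crem that were measured did not read lower in mutants. Creb1 read 4.83 to 5.11 on the mutant arrays and 4.77 to 5.00 on the control arrays, and Crem read 4.51 to 4.83 on the mutant arrays and 4.37 to 4.57 on the control arrays. Where these probes lie relative to the deleted parts is not given in the sources used here, so these levels check nothing about the labels. The array of mutant kainate replicate 3 had a narrower spread of values than the others, with an SD of 1.52 against 1.71 to 1.78. The array labelled control kainate replicate 3 read 12.95 for Gfap, an astrocyte gene, where the other 5 control arrays read 10.75 to 11.59. Mutant kainate replicate 3 read 11.55, within that control range, and the other mutant arrays read 12.225 to 13.03. An exchange of labels between these replicate 3 kainate arrays was not tested, and the groups follow the labels as given. Of the 4 measured astrocyte genes Gfap alone read higher in mutants on average (0.94 ± 0.35), and the other 3, Slc1a2, Apoe and Pla2g7, had differences below 0. The labels name no batch. The replicate 1 arrays of all 4 groups also differed together from replicates 2 and 3, as given for the members below. Some results are therefore also given from a reduced fit, which leaves out mutant kainate replicate 3 and the array labelled control kainate replicate 3 and blocks on replicate 1 against the others. The actin signal at the 3′ end minus that at the 5′ end, which grows as RNA degrades, was 2.20 to 2.44 on the kainate arrays of replicates 2 and 3, 1.61 to 1.77 on those of replicate 1, and 1.74 to 2.00 on the saline arrays. Its part in the kainate values was not tested.

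The families differed in how many of their probe sets were measured. Of the Hnrn probe sets 6 of 8 were measured, of Elavl 5 of 7, of Dhx 6 of 9, of Eif 10 of 18, of Prpf 5 of 9 and of Celf 2 of 4. The lowest shares were 11 of 25 for Rbm, 6 of 22 for Ddx, 1 of 8 for Srsf and 0 of 3 for Sf3, and no symbol began with Sfrs. Of the SR proteins only Srsf1 was measured, while Srsf3, Srsf6 and Srsf11 were below the limit on every probe set. No probe set reached the limit for Prpf8, a core protein of the spliceosome, for Sf3b2 of the U2 particle, or for Celf1, Hnrnpll and Eif4g3. The other genes below it were Ddx1, Ddx4, Ddx10, Ddx17, Ddx20, Ddx23, Ddx31, Ddx43, Dhx36, Dhx37, Eif2ak3, Eif2b3, Eif2d, Eif6, Rbm12, Rbm25, Rbm33, Rbm39, Rbm44, Rbm45, Rbm47 and Rbmxl2. A value below the limit says only that the probe set read dim, and nothing about the level of the protein.

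Most member probe sets were either above the limit throughout or never. On all 12 arrays 38 probe sets reached log2 4, while 58 did so on none. The member just inside was Dhx34, which reached it on 4 arrays with values of 3.67 to 4.84. The nearest below were Rbm12, which reached it on 2 arrays with values of 3.83 to 4.05, and Ddx43 and Rbm45, each on 1 array. A caution applies to 30 of the 52 measured probe sets by their design class. Those with the suffix f (9) or s (2) match families of similar sequences, so reads from related genes cannot be told apart there. Those with i (7) or r (12) did not meet the usual rules for probe choice. How far they read related genes is not known here.

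**Figure D1:**
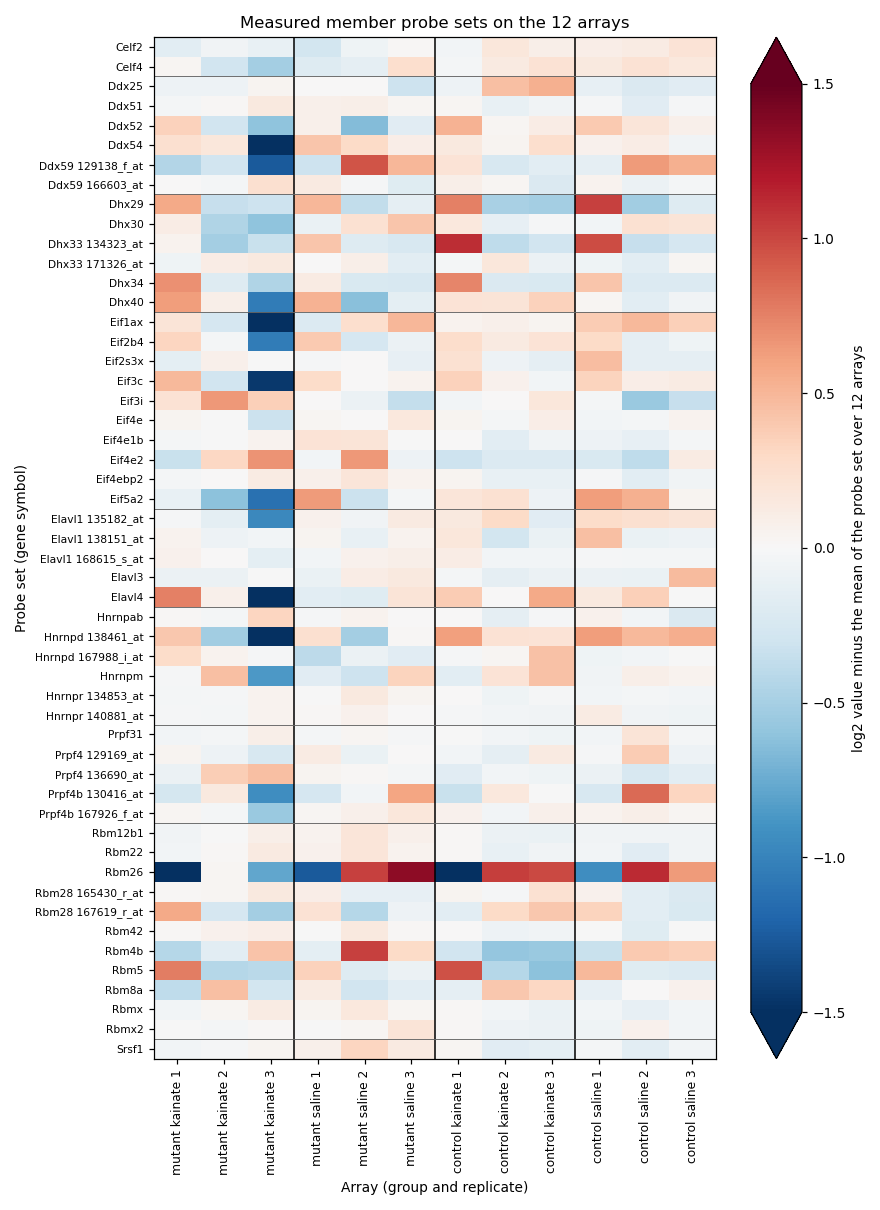
Deviation of each measured member probe set from its own mean over the 12 arrays, in log2 units (colour), with probe sets as rows and arrays as columns, ordered mutant kainate, mutant saline, control kainate, control saline. The colour scale ends at 1.5 log2 units either way. The column of mutant kainate replicate 3 holds many negative deviations, among them Elavl4 at 4.10 where the other arrays read 6.07 or more, and Rbm26 is low on the replicate 1 arrays.

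No member passed an adjusted p of 0.05 in any of the 7 comparisons. The comparisons were kainate against saline and mutant against control, each averaged over the other factor and within each of its levels, and the interaction between them. For kainate averaged over genotype 0 of 52 members passed, where 0.141% of all 3541 probe sets did. In mutant mice and in control mice 0 members passed, where 0.0282% of all did in each. For genotype averaged over treatment, after kainate, after saline and for the interaction, 0% of all probe sets passed as well. The lowest adjusted p of a member was 0.247, reached for genotype averaged over treatment.

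**Figure D2:**
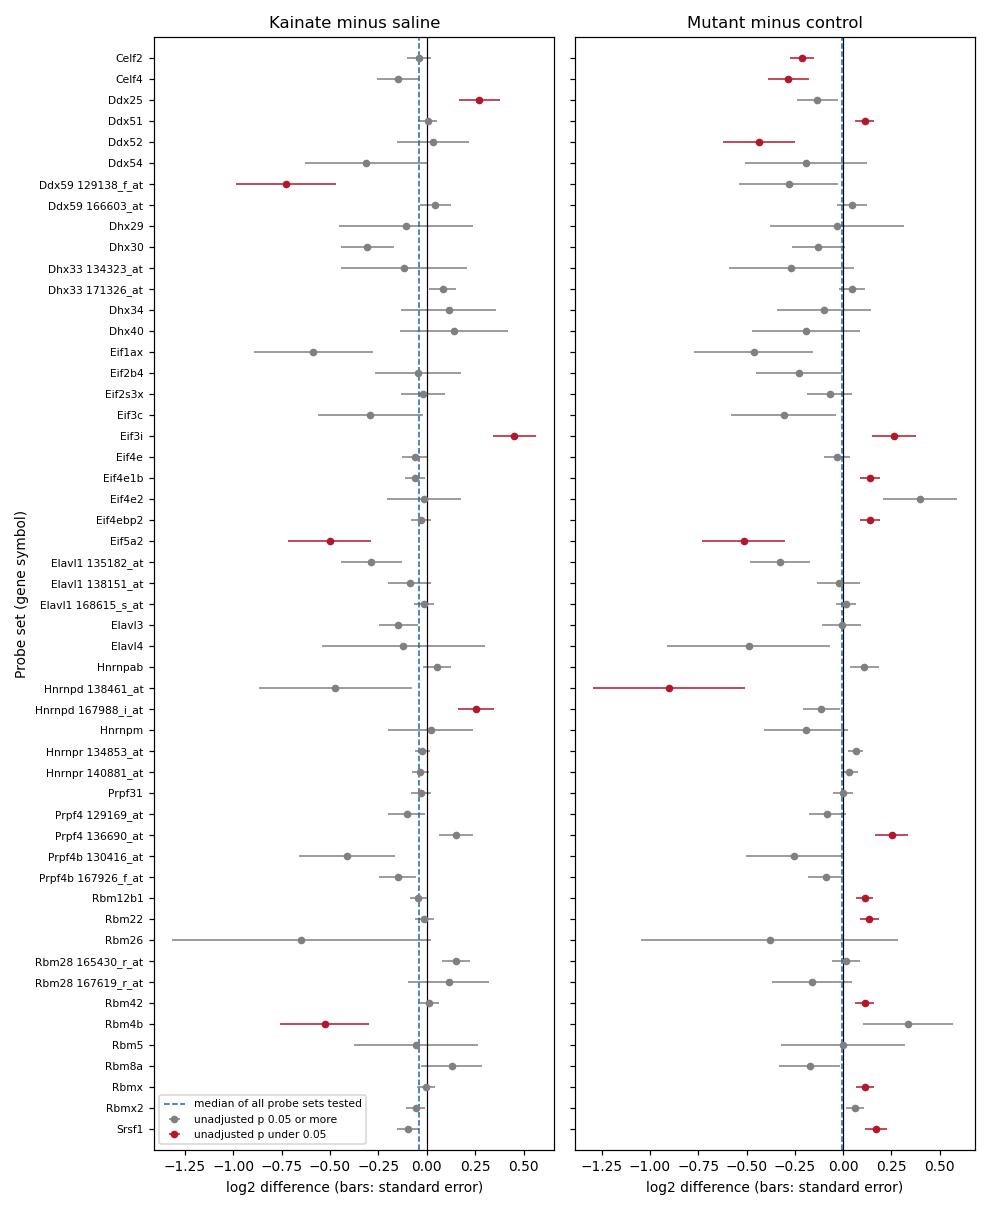
Log2 difference (x axis, with bars of 1 standard error) of each of the 52 measured member probe sets (y axis) for kainate minus saline, left, and mutant minus control, right, each averaged over the other factor. Red marks an unadjusted p under 0.05, the dashed line is the median of all probe sets tested, and the members lie on both sides of 0 in both panels.

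As a group the members moved little after kainate. Averaged over genotype, 16 of the 52 were higher after kainate and the median difference was -0.04, the same as the -0.04 of all probe sets. An unadjusted p under 0.05 was reached by 6 members, 3 higher and 3 lower, or 11.5% where 11.3% of all probe sets did so (3.19% higher and 8.11% lower). In mutant mice it was 5 members, 2 higher and 3 lower (9.62%, against 8.47% of all, 1.55% higher and 6.92% lower), with a median of -0.06 against -0.09 for all. In control mice it was 1 member, Ddx25 (1.92%, against 4.46% of all, 1.78% in its direction), and the median was 0.00 against 0.01. After quantile normalization of the deposited values, a choice made after the data were seen, the members at this level in mutant mice were 3 higher and 1 lower, where 4.83% of all probe sets were higher and 3.84% lower. In the reduced fit the count in control mice was 0, against 6.3% of all probe sets.

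Among the Eif genes, the 2 members with the clearest kainate values lay in opposite directions. Eif3i encodes a subunit of eIF3, the complex that holds the small ribosomal subunit ready for the messenger. It read 6.29, 6.72 and 6.43 on the mutant kainate arrays against 6.08, 5.99 and 5.72 on the mutant saline arrays, and 6.04, 6.08 and 6.24 on the control kainate arrays against 6.05, 5.52 and 5.72 on the control saline arrays. All 3 mutant kainate arrays thus lay above every mutant saline array, while in control mice one kainate array lay just below the highest saline array. Averaged over genotype it was 0.45 ± 0.11 log2 units higher after kainate (SE from the limma fit, adjusted p = 0.349). Split by replicate number it was 0.09 (replicate 1) and 0.63 (replicates 2 and 3), and 0.42 in the reduced fit.

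Eif5a2, a relative of eIF5A, which helps the ribosome form difficult peptide bonds, was lower after kainate. It read 9.07, 8.56 and 8.06 on the mutant kainate arrays and 9.81, 8.86 and 9.15 on the mutant saline arrays, and 9.36, 9.41 and 9.10 on the control kainate arrays and 9.81, 9.71 and 9.21 on the control saline arrays. The groups overlap in both genotypes. The difference averaged over genotype was -0.50 ± 0.21 (adjusted p = 0.422). By replicate number it was -0.60 (replicate 1) and -0.45 (replicates 2 and 3). Mutant arrays also read lower than control arrays (-0.52 ± 0.21, adjusted p = 0.257), and after kainate every mutant array lay below every control array (-0.73 ± 0.30, adjusted p = 0.55). Mutant kainate replicate 3 read below all other arrays. Without it the averaged difference was -0.37 ± 0.20 for kainate and -0.39 ± 0.20 for genotype. This probe set has the suffix i.

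The other 8 measured Eif genes had no kainate difference at an unadjusted p under 0.05 in either genotype. Eif1ax, which encodes the scanning factor eIF1A, read 9.28 to 9.31 on the control kainate arrays and 9.59 to 9.71 on the control saline arrays, so the groups did not overlap, at a difference of -0.35 ± 0.43 (adjusted p = 1). Such separation in either direction was seen for 3 of the 52 members in control mice and for 10.6% of all probe sets. Its large standard error comes from a fit that shares the spread with mutant kainate, where replicate 3 read 7.37 against 9.43 and 8.98. Eif4e, which encodes the cap-binding protein, read 7.07 to 7.44 in mutant kainate, 7.40 to 7.55 in mutant saline, 7.36 to 7.49 in control kainate and 7.35 to 7.45 in control saline, a kainate difference of -0.06 ± 0.07. Eif3c, another eIF3 subunit, differed by -0.29 ± 0.27 (-0.04 ± 0.14 without mutant kainate replicate 3), Eif2b4 of the exchange factor eIF2B by -0.05 ± 0.22 (0.15 without that array), Eif2s3x, the X-linked subunit of eIF2, by -0.02 ± 0.11 and Eif4e2, which encodes a cap-binding repressor, by -0.02 ± 0.19.

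Outside the Eif genes, Ddx25, Hnrnpd, Ddx59 and Rbm4b reached an unadjusted p under 0.05 for kainate averaged over genotype, and none passed the adjustment. Ddx25, a helicase known from the testis, read 4.02, 4.54 and 4.62 on the control kainate arrays against 3.97, 3.88 and 3.91 on the control saline arrays. Its mutant arrays read 4.02, 4.01 and 4.14 after kainate and 4.09, 4.10 and 3.78 after saline. In control mice all kainate arrays lay above all saline arrays, close to the limit of 4, and in mutants the groups overlapped. The difference was 0.47 ± 0.15 in control mice (adjusted p = 1), and by replicate number 0.05 (replicate 1) and 0.68 (replicates 2 and 3). The interaction was -0.41 ± 0.21 (adjusted p = 0.973), the lowest unadjusted p of any member, and 0 of 52 members reached an unadjusted p under 0.05 there against 0.875% of all probe sets.

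Hnrnpd encodes AUF1, which binds AU-rich elements and sets the stability of messengers. Its probe set 167988_i_at read 4.94, 4.71 and 4.64 in mutant kainate against 4.27, 4.57 and 4.49 in mutant saline, and 4.64, 4.69 and 5.09 in control kainate against 4.59, 4.62 and 4.65 in control saline. The groups parted in mutant mice and overlapped in control mice, with an averaged difference of 0.25 ± 0.09 (adjusted p = 0.365). The second probe set, 138461_at, read 7.08, 6.16 and 4.34 in mutant kainate and 6.92, 6.17 and 6.69 in mutant saline, and its averaged difference was -0.47 ± 0.39 (adjusted p = 0.712). That value rests on mutant kainate replicate 3, without which it was -0.09 ± 0.19.

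Ddx59, an RNA helicase gene, was also read by a pair of probe sets that differ. The brighter, 129138_f_at, read 4.17, 4.32 and 3.35 in mutant kainate against 4.30, 5.55 and 5.11 in mutant saline, and 4.82, 4.37 and 4.45 in control kainate against 4.47, 5.25 and 5.14 in control saline. Its groups overlap through the replicate 1 arrays. The averaged difference was -0.73 ± 0.26 (adjusted p = 0.353). Split by replicate number it was 0.10 (replicate 1) and -1.14 (replicates 2 and 3), and in the reduced fit -0.48. The second probe set, 166603_at, gave 0.04 ± 0.08.

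Rbm4b encodes an RNA-binding protein of the RBM4 type, which acts in splicing and translation. It read 7.61, 7.88 and 8.48 in mutant kainate against 7.90, 9.06 and 8.33 in mutant saline, and 7.76, 7.46 and 7.48 in control kainate against 7.71, 8.44 and 8.40 in control saline. The groups overlap in both genotypes. Its averaged difference was -0.53 ± 0.23 (adjusted p = 0.435), or -0.12 (replicate 1) and -0.73 (replicates 2 and 3) by replicate number. Dhx30, a helicase of mitochondrial ribosome assembly, reached an unadjusted p under 0.05 in mutants alone, which does not show that the genotypes differ. It read 9.48, 8.92 and 8.77 in mutant kainate and 9.26, 9.60 and 9.78 in mutant saline, a difference of -0.49. Its control arrays read 9.52, 9.24 and 9.35 after kainate and 9.32, 9.60 and 9.555 after saline. The groups overlap in both genotypes, and mutant kainate replicate 3 read below all other arrays. In mutants the sign of the difference was opposite in the replicate 1 arrays (0.22) and in the others (-0.84).

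**Figure D3:**
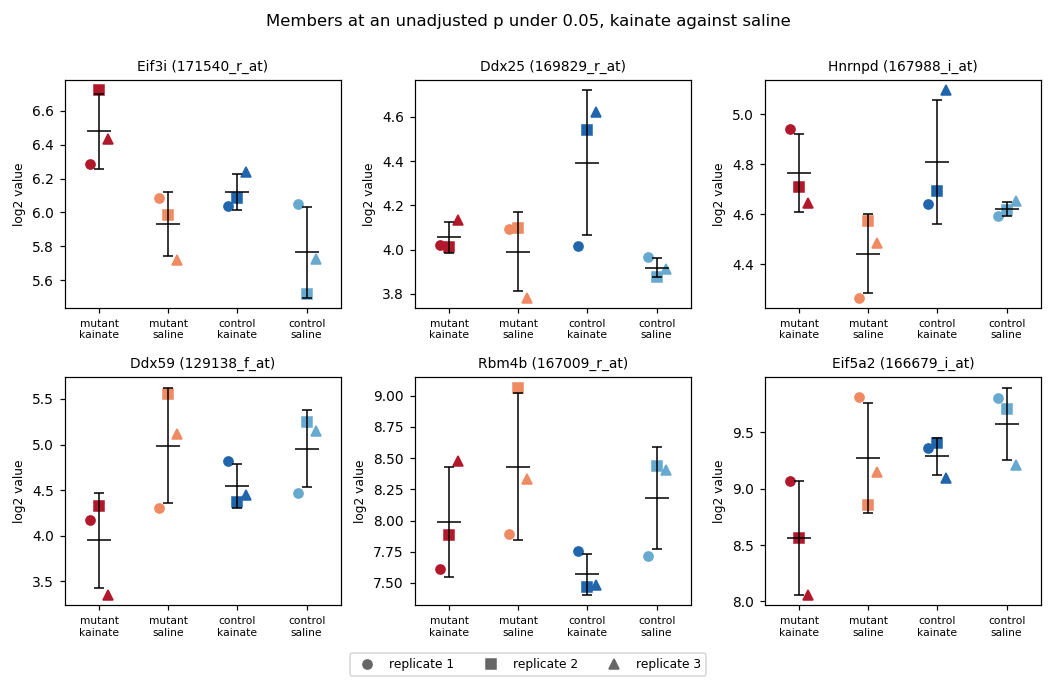
Log2 values on each array for the 6 members at an unadjusted p under 0.05 for kainate against saline averaged over genotype, with the bar at the group mean and whiskers of 1 SD (n = 3 arrays per group), and marker shapes for replicates 1, 2 and 3. Eif3i separates kainate from saline in mutant mice, and the replicate 1 arrays of Ddx59 read between 4.17 and 4.82 in all 4 groups.

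Between the genotypes, 15 of the 52 measured members reached an unadjusted p under 0.05 averaged over treatment, 10 higher and 5 lower in mutants, and none passed the adjustment. The share was 28.8%, against 19.1% of all probe sets, of which 14.3% were higher and 4.8% lower. The median difference of the members was -0.05, against -0.01 for all, and 20 of 52 were positive. The count depended on the processing, and in the reduced fit it was 6 (13.1% of all probe sets). After quantile normalization again it was 4, 3 higher and 1 lower, with 8.42% of all probe sets higher and 3.5% lower. Both settings were chosen after the data were seen.

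The direction went with the level of the probe set. Of the 29 members with a mean under log2 5, 8 (27.6%) were higher in mutants at an unadjusted p under 0.05 and 0 lower, and over all such probe sets 24.2% were higher and 1.61% lower. Of the 23 members with a mean of log2 5 or more, 2 (8.7%) were higher and 5 (21.7%) lower, where 4.03% and 8.13% of all such probe sets were. The part of signal level in these differences was not tested.

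Both measured Celf genes, which encode neuronal regulators of splicing and messenger stability, read lower in mutants. Celf2 read 12.16, 12.28 and 12.21 in mutant kainate and 12.29, 12.49 and 12.41 in control kainate, and 12.05, 12.27 and 12.35 in mutant saline and 12.42, 12.45 and 12.54 in control saline. Every mutant array lay below every control array of the same treatment. After saline, separation in this direction was seen for 5 of the 52 members and 5.11% of all probe sets. After kainate, separation in either direction was seen for 5 of the 52 and 6.21% of all. The averaged difference of Celf2 was -0.22 ± 0.06 (adjusted p = 0.247), or -0.25 (replicate 1) and -0.20 (replicates 2 and 3) by replicate number. In the reduced fit it was -0.21 ± 0.05 (adjusted p = 0.136). Celf4 read 11.29, 10.98 and 10.76 in mutant kainate and 11.23, 11.40 and 11.48 in control kainate, and 11.06, 11.12 and 11.52 in mutant saline and 11.41, 11.49 and 11.43 in control saline. Its groups overlap after both treatments, at a difference of -0.28 ± 0.11 (adjusted p = 0.247). Without mutant kainate replicate 3 the difference was -0.22 ± 0.10.

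The Elavl genes encode the Hu proteins, of which Elavl1 (HuR) is found in most cells and Elavl3 and Elavl4 in neurons. None reached an unadjusted p under 0.05 in either averaged comparison. Elavl1 on its probe set 135182_at read 8.13, 8.01 and 8.19 in mutant saline and 8.34, 8.30 and 8.26 in control saline, without overlap, and 8.04, 7.92 and 7.09 in mutant kainate and 8.21, 8.35 and 7.89 in control kainate, with overlap. The averaged difference was -0.33 ± 0.16 (adjusted p = 0.279), while its other probe sets gave -0.02 ± 0.11 and 0.01 ± 0.05. Without mutant kainate replicate 3, where 135182_at read 7.09, it was -0.18 ± 0.08. Elavl3 differed by -0.01 ± 0.10. Elavl4 differed by -0.49 ± 0.42 with all arrays and by 0.00 ± 0.16 in the reduced fit.

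Among splicing factors, Srsf1 and 1 of the 2 probe sets of Prpf4 read higher in mutants, and 1 of the 2 of Hnrnpd read lower, at an unadjusted p under 0.05 averaged over treatment. Srsf1 encodes the SR protein SF2/ASF, which promotes the use of splice sites. It read 5.24, 5.48 and 5.30 in mutant saline against 5.13, 5.01 and 5.12 in control saline, and 5.12, 5.15 and 5.21 in mutant kainate against 5.19, 5.00 and 5.02 in control kainate. The genotypes did not overlap after saline (0.25 ± 0.08, adjusted p = 0.385) and overlapped after kainate (0.09 ± 0.08, adjusted p = 0.559). After saline, separation in this direction was seen for 10 of the 52 members and 29% of all probe sets. The interaction for Srsf1 was -0.16 ± 0.11 (adjusted p = 0.973), and its probe set has the suffix r. In mutants all kainate arrays lay below all saline arrays, at -0.18 ± 0.08 (adjusted p = 0.579). Separation of mutant kainate from mutant saline in either direction was seen for 4 of the 52 members and 10.1% of all probe sets.

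Prpf4 encodes a protein of the U4/U6 particle of the spliceosome. Its probe set 136690_at read 4.46, 4.92 and 5.00 in mutant kainate against 4.39, 4.51 and 4.49 in control kainate, and 4.60, 4.57 and 4.53 in mutant saline against 4.46, 4.32 and 4.40 in control saline. The genotypes parted after saline, and after kainate only mutant replicate 1 lay among the control arrays. The averaged difference was 0.25 ± 0.09 (adjusted p = 0.247), and the difference after kainate 0.33 ± 0.12 (adjusted p = 0.55). Leaving out mutant kainate replicate 1 made it 0.50 ± 0.07 after kainate with an adjusted p of 0.0314, and 0.39 ± 0.07 for kainate in mutant mice with an adjusted p of 0.0325. These were the only calls of a member under any setting tried, at settings where 0.424% and 1.89% of all probe sets passed. The other probe set of Prpf4, 129169_at, gave a genotype difference of -0.08 ± 0.10, so the gene's direction is not settled.

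Hnrnpd on 138461_at read 7.08, 6.16 and 4.34 in mutant kainate and 7.29, 6.90 and 6.89 in control kainate, and 6.92, 6.17 and 6.69 in mutant saline and 7.31, 7.16 and 7.23 in control saline. After saline all mutant arrays lay below all control arrays. The averaged difference was -0.90 ± 0.39 (adjusted p = 0.26), and -0.56 ± 0.14 in the reduced fit (adjusted p = 0.161). Split by replicate number it was -0.30 (replicate 1) and -1.20 (replicates 2 and 3). Its second probe set gave -0.11 ± 0.09. Ddx52, a helicase gene whose yeast counterpart acts in ribosome assembly, read 6.28, 5.64 and 5.33 in mutant kainate and 6.46, 5.96 and 6.04 in control kainate, and 6.01, 5.28 and 5.76 in mutant saline and 6.33, 6.12 and 6.01 in control saline. Its saline groups touched to 2 decimals, and the averaged difference was -0.44 ± 0.19 (adjusted p = 0.259). Without mutant kainate replicate 3 the difference was -0.33, with an SE of 0.175.

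The remaining members higher in mutants at an unadjusted p under 0.05 differed by small amounts. Eif3i was higher by 0.26 ± 0.11 (adjusted p = 0.26), Eif4e1b, a cap-binding relative known from oocytes, by 0.14 ± 0.05, and Eif4ebp2, the inhibitor of eIF4E most abundant in the brain, by 0.14 ± 0.05 (each adjusted p = 0.247). Rbm22, a protein of the active spliceosome, was higher by 0.14 ± 0.05, and Rbm12b1, Rbm42, Rbmx and Ddx51 by 0.11 ± 0.04 to 0.11 ± 0.05. All but Eif3i have means under log2 5. The array medians also parted by genotype after saline, at 3.32 to 3.37 on the mutant saline arrays against 3.26 to 3.29 on the control saline arrays, and overlapped after kainate (3.30 to 3.41 in mutants and 3.26 to 3.33 in controls). Their part in these differences was not tested. For Eif4ebp2 the arrays read 4.25, 4.29 and 4.40 in mutant kainate and 4.32, 4.16 and 4.17 in control kainate, and 4.36, 4.46 and 4.33 in mutant saline and 4.26, 4.12 and 4.23 in control saline. The genotypes parted after saline and overlapped after kainate.

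After saline alone 6 members reached an unadjusted p under 0.05, 5 higher and 1 lower (11.5%, against 12.1% of all probe sets, 10.7% higher and 1.41% lower). They were Srsf1, Eif4e1b (0.21 ± 0.07), Rbm22 (0.18 ± 0.07), Eif4ebp2 (0.18 ± 0.07), Rbm12b1 (0.16 ± 0.06) and, lower, Celf2 (-0.25 ± 0.09). In the reduced fit the count was 10 (17.2% of all), and after quantile normalization again it was 2, 1 higher and 1 lower (4.66% of all). In this comparison 10 members lay above and 5 below without overlap, while 29% of all probe sets lay above and 5.11% below. After kainate 3 members reached this level, 1 higher and 2 lower (5.77%, against 4.72% of all, 0.904% higher and 3.81% lower): Prpf4, Eif5a2 and Celf4 (-0.36 ± 0.15). Here 5 members, 2 above and 3 below, did not overlap between genotypes, against 6.21% of all probe sets.

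**Figure D4:**
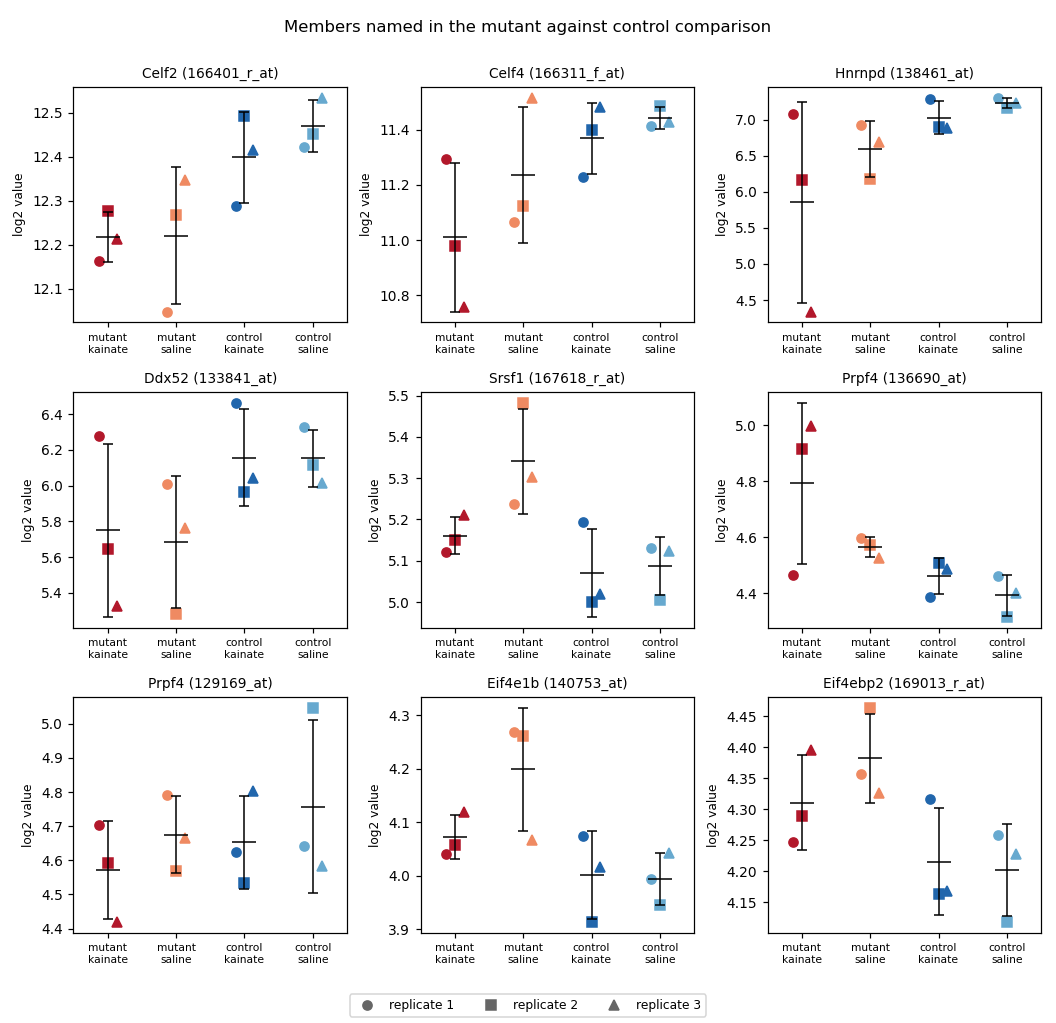
Log2 values on each array for members named in the comparison of mutant with control mice, with the bar at the group mean and whiskers of 1 SD (n = 3 arrays per group), and marker shapes for replicates 1, 2 and 3. Celf2 lies lower in mutants after both treatments, and the 138461_at probe set of Hnrnpd reads 4.34 on mutant kainate replicate 3.

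A total of 8 genes were read by several measured probe sets. Besides Ddx59, Elavl1, Hnrnpd and Prpf4 these were Dhx33, Hnrnpr, Prpf4b and Rbm28. Prpf4b, a kinase of the spliceosome, had genotype differences of -0.25 ± 0.25 and -0.09 ± 0.09 and kainate differences of -0.41 ± 0.25 and -0.15 ± 0.10. Rbm28, a nucleolar protein, had kainate differences of 0.15 ± 0.07 and 0.11 ± 0.21. Dhx33 had kainate differences of -0.12 ± 0.32 and 0.08 ± 0.07, and Hnrnpr, which takes part in messenger transport in axons, -0.02 ± 0.04 and -0.03 ± 0.04. Of the 8 genes, Ddx59, Hnrnpd, Dhx33 and Prpf4 had kainate differences of opposite sign between their probe sets.

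Promoters were searched for the element that CREB and CREM bind, because its presence in a member is of use when the genotype values are read. RefSeq promoter sequences (assembly GRCm38.p6, 250 bases before to 50 after the start) were at hand for 62 of the 73 member genes and 37 of the 43 measured ones. The full element TGACGTCA, its own reverse complement, occurred in the promoters of Ddx51 and Dhx36, 2 of 82 member promoters (2.44%) against 1.79% of all 32851 promoters and 2.23% of those of protein-coding genes. The half-site TGACG, or CGTCA on the other strand, which each full element contains, occurred in 38 of 82 (46.3%) against 20.8% and 23.6%. Both promoters with the full element and that of Srsf1, which holds a half-site, are shown 5′ to 3′ on the gene's strand with the matches in capitals. Ddx51 lies at chr5:110653201-110653500 (+), Dhx36 at chr3:62506939-62507238 (-) and Srsf1 at chr11:88047123-88047422 (+).
Ddx51: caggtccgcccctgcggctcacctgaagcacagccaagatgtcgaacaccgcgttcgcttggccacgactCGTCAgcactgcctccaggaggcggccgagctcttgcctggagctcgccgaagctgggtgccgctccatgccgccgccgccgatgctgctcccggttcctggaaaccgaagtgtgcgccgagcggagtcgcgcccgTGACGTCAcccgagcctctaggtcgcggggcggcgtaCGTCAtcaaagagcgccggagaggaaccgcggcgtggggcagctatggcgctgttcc
Dhx36: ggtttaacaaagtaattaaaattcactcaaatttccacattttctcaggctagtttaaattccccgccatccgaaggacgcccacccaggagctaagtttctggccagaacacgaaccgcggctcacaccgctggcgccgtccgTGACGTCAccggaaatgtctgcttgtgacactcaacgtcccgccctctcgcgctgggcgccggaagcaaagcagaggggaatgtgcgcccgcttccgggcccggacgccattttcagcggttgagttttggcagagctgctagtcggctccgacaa
Srsf1: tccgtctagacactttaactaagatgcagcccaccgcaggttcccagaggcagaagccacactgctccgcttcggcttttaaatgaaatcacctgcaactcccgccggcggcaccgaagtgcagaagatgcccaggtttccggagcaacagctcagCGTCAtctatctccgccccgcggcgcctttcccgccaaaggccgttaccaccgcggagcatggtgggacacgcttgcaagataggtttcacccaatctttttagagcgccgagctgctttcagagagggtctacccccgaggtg

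Counted from the gene's start, the full element begins at position -44 in Ddx51 and -106 in Dhx36, and the half-site of Srsf1 at -94. Ddx51, a helicase of ribosome assembly, read 4.38, 4.42 and 4.55 in mutant kainate against 4.44, 4.30 and 4.35 in control kainate, and 4.48, 4.50 and 4.43 in mutant saline against 4.38, 4.23 and 4.39 in control saline. Its genotypes parted after saline and its averaged difference was 0.11 ± 0.05 (adjusted p = 0.26), with a kainate difference of 0.00 ± 0.05. Dhx36, a helicase that resolves G-quadruplexes, was not measured. Over the measured members, the 26 probe sets of genes with a half-site had a median genotype difference of -0.02 and a median kainate difference of -0.03, and the 20 without had -0.10 and -0.07. A match describes the letters of this window only and is no evidence of binding.

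Some members differed more between replicate numbers than between groups. On 7 of the 52 (13.5%, against 9.07% of all probe sets) the 4 replicate 1 arrays did not overlap the 8 others, with 6 above (6.78% of all) and 1 below (2.29% of all). Rbm26, which takes part in the decay of nuclear RNA, read 4.01 to 4.79 on replicate 1 and 4.94 to 7.06 on replicates 2 and 3, a mean difference of -2.02. Higher on replicate 1 were Dhx29, a helicase of translation initiation (1.07), Dhx33 on 134323_at (0.96), Rbm5, a splicing regulator (0.95), Dhx34, a factor of nonsense-mediated decay (0.73), Eif3c (0.54) and Eif2b4 (0.48). Their averaged kainate and genotype differences had standard errors up to 0.67 (Rbm26). None of these 7 is among the members at an unadjusted p under 0.05 in any comparison.

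The array of mutant kainate replicate 3 read below all 11 others on 20 of the 52 members (38.5%, against 38.9% of all probe sets) and above all on 5 (9.62%, against 14.2%). Ddx54, a nucleolar helicase, read 6.42 there and 8.17 to 8.64 elsewhere. Eif3c read 6.97 there and 8.12 to 8.90 elsewhere, and Eif1ax 7.37 there and 8.98 to 9.73 elsewhere. These shares of the members are near those of all probe sets.

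**Figure D5:**
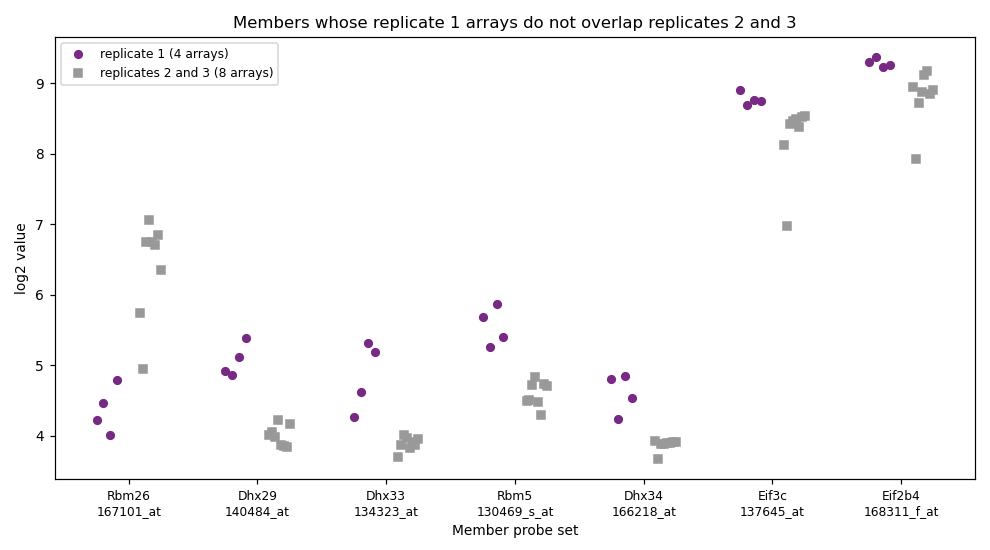
Log2 values on each array (y axis) for the 7 members whose replicate 1 arrays do not overlap the others (x axis), with circles for the 4 replicate 1 arrays and squares for the 8 arrays of replicates 2 and 3. Rbm26 reads 4.01 to 4.79 on the 4 replicate 1 arrays and 4.94 to 7.06 on the 8 others.

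Other genes of RNA processing and translation, from lists written with earlier results of these data known, gave no call at an adjusted p under 0.05 either. The counts that follow are at an unadjusted p under 0.05, a level reached over all probe sets by 3.19% higher and 8.11% lower for kainate averaged over genotype, and by 14.3% higher and 4.8% lower for genotype averaged over treatment. Of 73 spliceosome components and cofactors 25 have a probe set on the array and 12 were measured. For kainate 1 was higher, Snrpc of the U1 particle (0.46 ± 0.16), 0 were lower and 11 reached no such p, and for genotype 0 did. Of 72 neuronal and other regulatory RNA-binding proteins 25 are on the array and 11 were measured, and after kainate 0 were higher and 2 lower: Cpeb4, which controls poly(A) tail length and translation (-0.65 ± 0.22), and the translational repressor Pum2 (-0.56 ± 0.19). In mutants 2 of these 11 were higher, Zc3h14 (0.23 ± 0.07) and Ybx1 (0.12 ± 0.05), and 1 lower, Khdrbs3 (-0.32 ± 0.13), which encodes the splicing regulator T-STAR.

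Of 77 genes of messenger export, decay and 3′ end processing 25 are on the array and 9 were measured. After kainate 1 was lower (8.11% of all probe sets), Thoc2 of the THO export complex (-0.80 ± 0.29), and in mutants 1 was higher (14.3% of all), Pcf11 (0.10 ± 0.04). Of 56 genes of translation elongation, termination and control 20 are on the array and 7 were measured, with Eef2, the elongation factor that moves the ribosome, higher after kainate (0.39 ± 0.12, adjusted p = 0.349) and Mcts2 lower in mutants (-0.49 ± 0.17). Of 15 genes listed as SR protein kinases and other kinases and phosphatases, 5 are on the array and 4 were measured. Among these 4 is Prpf4b, already given as a member. The kinases Hipk1 and Hipk2, which are not SR protein kinases, read higher (0.15 ± 0.05) and lower (-0.83 ± 0.36) in mutants. The medians of these lists for kainate lay between -0.06 and 0.01, beside -0.04 for all probe sets.

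The hippocampal and neuronal markers on the array were few. Of 10 neuronal genes only Syn1 and of 12 genes of hippocampal neurons only Nrgn were measured. Syn1 reached an unadjusted p under 0.05 for kainate averaged over genotype (0.51 ± 0.14, higher), and Nrgn did not (0.29 ± 0.23). Over all probe sets 3.19% reached that level higher and 8.11% lower. Of 14 astrocyte genes 4 were, with an average over them of 6.35 to 7.20 in mutant kainate, 6.37 to 6.92 in mutant saline, 6.04 to 7.50 in control kainate and 6.16 to 6.49 in control saline. Averaged over genotype, all 4 had kainate differences above 0, with a median of 0.31. Within genotypes all 4 were above 0 in control mice (median 0.51), and 2 of the 4 in mutant mice (median 0.085). In the average Apoe (0.51 ± 0.13) and Pla2g7 (0.25 ± 0.06) reached an unadjusted p under 0.05. Of 11 genes of choroid plexus and ependyma only Dynlrb2 was measured, and it was lower after kainate at that level (-0.26 ± 0.06). Of 12 oligodendrocyte genes 3 were measured (averages of 7.21 to 8.57 in mutant kainate, 8.46 to 8.61 in mutant saline, 8.54 to 8.64 in control kainate and 8.50 to 8.69 in control saline), of 12 microglial genes 3 (6.72 to 7.64, 7.30 to 7.61, 6.95 to 7.70 and 6.92 to 7.20 in mutant kainate, mutant saline, control kainate and control saline) and of 12 endothelial, pericyte and blood genes 1, Flt1 (5.70 to 7.49, 6.44 to 6.62, 6.70 to 7.38 and 6.49 to 6.96 in those groups). None of these 7 genes reached that level for kainate or genotype averaged over the other factor. The part of these markers in the members' values was not tested. In RNA from whole tissue, fewer cells of a type and less RNA per cell cannot be told apart.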

How the data were processed

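Hippocampal RNA was measured on 12 arrays in 4 groups of 3. The deposited table holds log2 values made by the authors with GCRMA (version not given in the sources used here) in R 2.4.1, per the submitters' processing notes. GCRMA adjusts background by probe sequence and normalizes across arrays, so values near the floor are compressed. Of 11934 probe sets 66 are controls, and 3541 of the other 11868 had log2 4 or more on 3 or more arrays and were tested. Gene symbols came from the platform annotation: 7717 probe sets have 1 symbol, 150 several and 4001 none.

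In R 4.3.3, limma 3.58.1 (lmFit, contrasts.fit, eBayes) was fitted to all 12 arrays with 1 mean per group, no block and 8 residual degrees of freedom, and p-values were adjusted by Benjamini-Hochberg over all 3541 probe sets, separately in each of 7 comparisons. The fit was run on simulated data in which the arrays were drawn independently. Those data held no effect shared by same-numbered arrays, so the run cannot show how the fit behaves where such arrays correlate. Errors on differences are standard errors. The number of arrays limits the precision. Members and lists were chosen with earlier results of these data known. Named with values are members at an adjusted p under 0.05, up to 5 per direction and comparison at an unadjusted p under 0.05, the highest and lowest of each family, genes with several probe sets and members at the filter's edge. Others were chosen after their values were seen: Eif4e, Eif2s3x, Elavl3, Elavl4, Rbm26, Dhx29, Rbm5, Eif3c, Eif2b4, Eif4e2, Rbm42, Rbmx, Ddx51 and the genes of the other lists at an unadjusted p under 0.05.

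The replicate numbers were checked for pairing by the correlation of same-numbered arrays' deviations from their group means. All were over 0.1 for kainate in control mice (0.627, 0.383, 0.458), genotype after kainate (0.578, 0.333, 0.19) and genotype after saline (0.855, 0.47, 0.482), but not for kainate in mutant mice (0.479, 0.0448, -0.0779). The standard errors and the counts at an unadjusted p come from fits that do not use the replicate number as a block. How they change with that block is not given here. Alternatives were the filter, the block, both arrays that stand apart left out, quantile normalization and each array left out. Promoters came from a RefSeq table of GRCm38.p6, used for sequence and names alone.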

Additional observations from a re-analysis of the deposited data

How the results depend on the processing

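The number of members past the threshold, 0 in each of the 7 comparisons, stayed 0 with no filter, with a limit of log2 5, without mutant kainate replicate 3 and control kainate replicate 3 (as such and with a block on replicate 1 against the others, the reduced fit), after quantile normalization again and with only the arrays compared. With the replicate number as a block, the fit that uses the pairing, it was also 0 members in every comparison and changed no call of a member; over all probe sets it gave 2 calls in place of 1 for kainate in mutant mice and 3 in place of 1 in control mice, and the same number in the other 5. Leaving out 1 array at a time gave 0 to 1 members for kainate in mutant mice and 0 to 1 for genotype after kainate, and 0 in the other 5 comparisons. The member was Prpf4 by 1 of its probe sets, without mutant kainate replicate 1 (0.50 ± 0.07 after kainate, adjusted p = 0.0314). The cause was not tested. Of 592 alternative values of the 31 named differences, 591 kept their sign and stayed above an adjusted p of 0.05, and the other was that of Prpf4. Counts at an unadjusted p were less stable: for genotype averaged over treatment 15 members became 6 in the reduced fit and 4 after quantile normalization. For genotype after saline 6 became 10 and 2, and for kainate in control mice 1 became 0 in the reduced fit, while the share of all probe sets was 6.3% in place of 4.46%. Quantile normalization shifted the median of all probe sets by at most 0.09. Signals near log2 4 limit what can be measured for the 29 members with a mean under log2 5.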
